A study of Sus scrofa with 24 samples.

Results

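A set of 26 circular RNAs (circRNAs) was present in every spleen of 1-day-old and 7-day-old Meishan pigs and was listed at 0, member by member, in at least 2 of the 3 spleens taken 180 days after birth. They were 26 of the 3000 circRNAs of the deposited table, and they were chosen by these values: a raw count of at least 2 in each of the 6 libraries of 1d and 7d, and a raw count of 0 in at least 2 libraries of 180d. Of the table, 1291 circRNAs met the first condition and 80 the second, and 28 met both. Of these 28, circRNA_34381 and circRNA_25535 were left out by name.

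The spleens came from 24 healthy, untreated Meishan pigs, an indigenous Chinese breed, with 3 pigs at each of 8 ages, named by the day after birth: 1d and 7d, then 14d, 21d and 28d, then 35d, and the late ages 120d and 180d, and 1 library per pig. Each age is thus a different set of animals, and whole spleen was sequenced, so that fewer cells of a type and less RNA per cell cannot be told apart. A count is the number of reads that span a back-splice, in which an exon's end runs into the beginning of that exon or of one further upstream. No count of 1 is in the table and the smallest count above 0 is 2, so a circRNA seen once in a library is listed at 0.

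A circRNA is a closed RNA loop made by back-splicing of a pre-mRNA, and without free ends it resists exonucleases and usually outlives the linear mRNA of its gene. Because loops are passed on and diluted when cells divide, their level is known to depend on division as well as on production. In some mammals the newborn spleen still makes blood cells, with dividing precursors of red cells among them. It is later taken over by lymphocytes and macrophages. Genes of the cell cycle and of iron uptake are among the host genes below. They are known to be active in dividing precursors of red cells and in dividing lymphocytes. Blood cell formation was not measured in these pigs.

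The back-splice junctions below define members that the results turn on and show which exon ends were joined. Each is 30 bases from the RefSeq sequence of Sscrofa11.1, read 5′ to 3′ along the host gene, with the last 15 bases of the downstream exon in lower case and, in capitals, the first 15 bases of the upstream exon that follows it in the circle.
TFRC circRNA_11324, exons 1 to 6: acttttgctgagaagGTTCTTTTGTGTGGC
TFRC circRNA_11343, exons 9 to 10: acatggtcataaaagAAATATGGAACAAGA
BUB1 circRNA_23829, exons 9 to 16: ctctagaagataaagTCCATGAAGACAGGC
SGO1 circRNA_09013, exons 5 to 6: caaaatctcccactaGCAAGTTCCTCTTCA
TPX2 circRNA_18729, exons 4 to 6: agctcagcctcagagTAGGTGACCGATTGA
MCM6 circRNA_15204, exons 2 to 7: ttcctactatacatgATTCCAGAACAGCGA
FANCD2 circRNA_10114, exons 3 to 4: ccttcttatcccaaaAAACCAGGAAGCAAC
ANKHD1 circRNA_22597, exons 2 to 7: atggaggcttgcatgGTTGAATCATTTATT
ALMS1 circRNA_24176, exons 12 to 15: tgaaagatactgcagATCACCAGAGGAGAT
ALMS1 circRNA_24175, exons 12 to 16: aaatagatattgcagATCACCAGAGGAGAT

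Both ALMS1 circles begin with the same exon, so their capitals are identical, and they differ in the exon that closes the circle. In all 25 members with an exon chain the circle was preceded by AG and followed by GT in the genome, the bases of the usual splice sites. The upstream end of TFRC circRNA_11324 is the annotated first exon of the gene, before which RefSeq has no intron. This circle and those of TFDP1 and TPX2 hold the start codon and a stretch of 5′ UTR, and 21 of the 25 (84.0%) hold coding bases only, against 82.7% of the 2813 other circRNAs with an exon chain.

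The 25 members with a host gene came from 23 genes on 14 chromosomes. Their median length was 585 nt (209 to 1254), against 431 nt for the other circRNAs of the table, and their median number of exons was 4, against 3. None was made of a single exon, as 3.98% of the others were. Introns upstream of the circle had a median of 5489 nt, against 7829 nt in the others, and introns downstream a median of 4709 nt, against 6738 nt. The GC content was 44.8%, against 43.3%, and 32.0% of the members began at exon 2, against 28.4%. These are descriptions of 25 circles, and none of the differences was tested.

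The libraries held between 16273 and 87867 back-splice reads of the 3000 circRNAs. The members were scarce, with a median of 5 reads over the 156 counts at 1d and 7d and a highest count of 37, and 23 of these counts were 2, the smallest that the rule admits. In TMM-scaled (normalized) counts, their median over 1d and 7d was 8.0, against 12.6 for all 1291 circRNAs that were present in the same 6 libraries. The rule therefore took members from the lower part of the early circRNAs. Just inside the rule, the members had a median of 3 reads in total at 180d (0 to 20). Just outside it, 112 circRNAs with early reads were at 0 in exactly 1 library of 180d and had a median of 10 reads there (4 to 91).

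The pigs of 180d differed among themselves. Pig 1 had reads for 5 of the 26 members, pig 2 for 2 and pig 3 for 18. That no member had reads in more than 1 of the 3 is fixed by the rule. Pig 3 gave 76.6% of the 107 member reads at 180d, and 20 of its 82 reads were from CALCOCO2 circRNA_07805. Only ALMS1 circRNA_24176 was at 0 in all 3 pigs. Of all 3000 circRNAs, 9.57%, 4.83% and 4.80% were at 0 in these pigs. Most members were thus listed at 0 in pigs 1 and 2, and in pig 3 most of them were still detected.

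**Figure D1:**
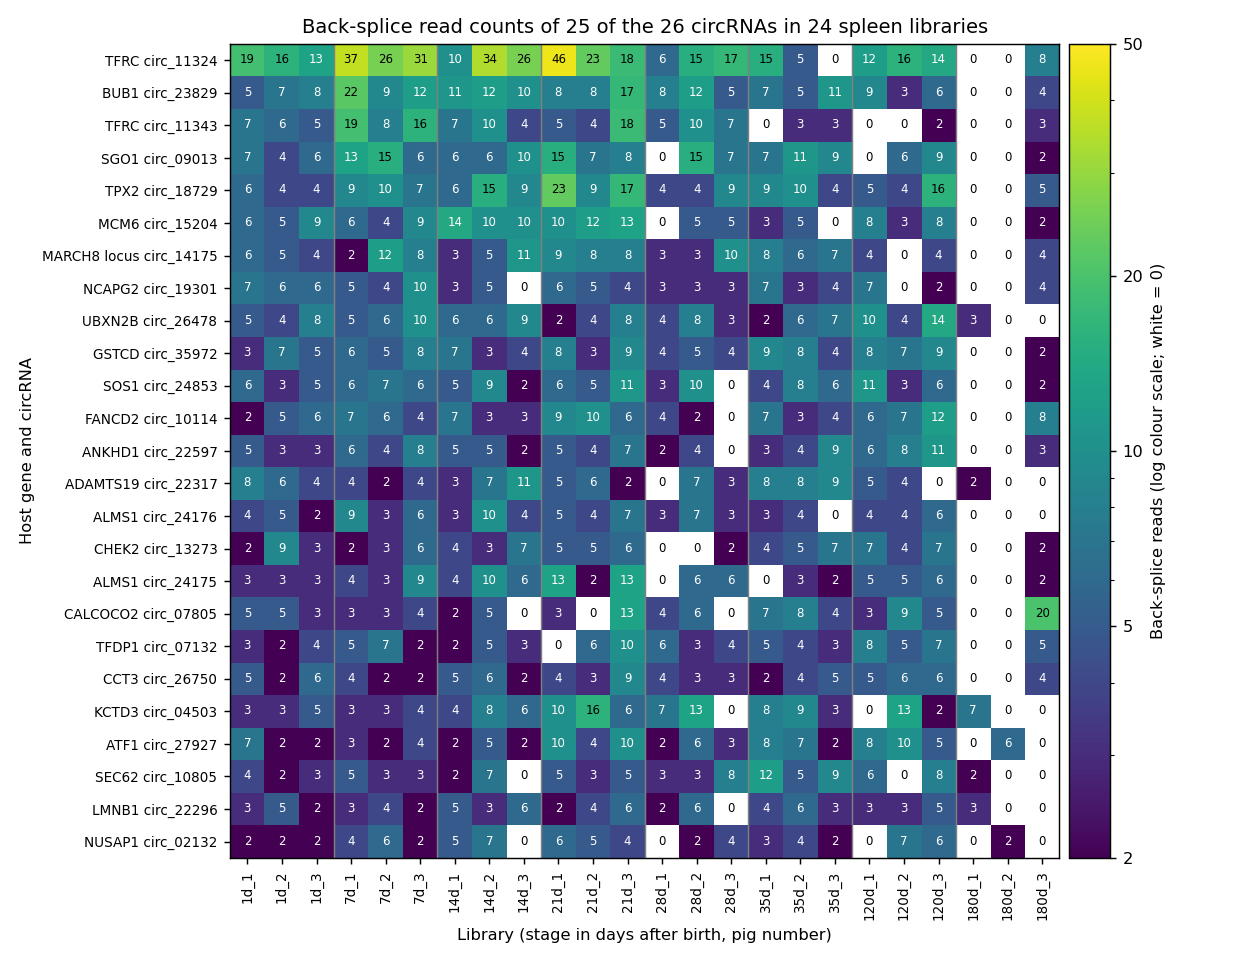
Back-splice reads of 25 of the 26 circRNAs (rows, from the highest to the lowest mean normalized count over 1d and 7d) in each of the 24 libraries (columns, by age and pig), with the count printed in each cell and a log colour scale on which 0 is white. The white block covers the pigs 180d_1 and 180d_2, while 180d_3 has reads for most of them, and up to 120d most cells are filled.

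Reads of the 26 circRNAs together, per M clean reads of a library (M is 1000000), were 1.15 ± 0.0887 in 1d pigs, 1.67 ± 0.150 in 7d pigs, 1.46 ± 0.308 in 14d pigs and 1.84 ± 0.337 in 21d pigs (SD, n = 3 pigs per age). They were 1.08 ± 0.359 in 28d pigs, 1.35 ± 0.169 in 35d pigs, 1.44 ± 0.373 in 120d pigs and 0.335 ± 0.376 in 180d pigs. By this measure the level at 120d lay among those of the first 5 weeks, and only the 3 pigs of 180d (0.165, 0.0735 and 0.765) were below the lowest pig of every other age, which had 0.782 at 28d. The difference at 180d is what the members were chosen for.

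Set against the other circRNAs, the course was different. The reads of the whole table were more numerous at 120d than at 14d, with 71092 to 87867 per library at 120d and 29718 to 37895 at 14d. Per 1000 reads of the table the members took 6.48 ± 1.61 in 1d pigs, 8.29 ± 0.509 in 7d pigs, 4.83 ± 0.614 in 14d pigs and 4.63 ± 1.26 in 21d pigs. They took 3.07 ± 1.05 in 28d pigs, 3.06 ± 1.00 in 35d pigs, 1.90 ± 0.273 in 120d pigs and 0.695 ± 0.705 in 180d pigs. The pigs of 120d had 1.62, 1.91 and 2.16, all below the 4.14, 5.30 and 5.05 of the pigs of 14d. On this relative scale the members were thus already low at 120d, at an age the rule did not use.

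Normalized counts followed the relative scale. The median over members of the mean normalized count was 7.67 in 1d pigs, 9.30 in 7d pigs, 5.71 in 14d pigs, 5.27 in 21d pigs, 4.08 in 28d pigs, 4.59 in 35d pigs, 2.98 in 120d pigs and 0.875 in 180d pigs, while the median of all circRNAs stayed between 6.68 and 7.4. The highest mean was in 7d pigs for 15 members, in 1d pigs for 6, in 21d pigs for 3, and in 14d and 35d pigs for 1 each. A peak at 1d or 7d is in part what the rule chose, so these counts are a description. Detection was nearly complete between these ages, with 35 of the 390 member counts from 14d to 120d at 0, and 18 members had reads in all 3 pigs of 120d. Every circRNA of the table had reads in at least 16 of the 24 libraries. Part of the members' detection from 14d to 120d was therefore fixed by the table and the rule.

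**Figure D2:**
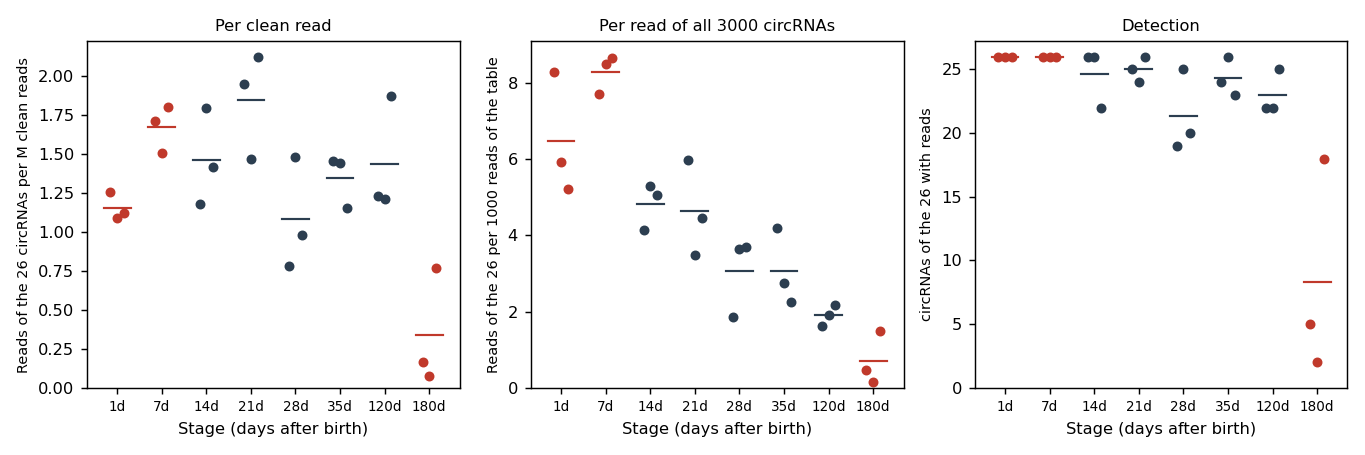
Summed reads of the 26 circRNAs in each library per M clean reads (left) and per 1000 reads of all 3000 circRNAs (middle), and the number of the 26 with reads (right), by age; points are pigs, bars are means of 3, and the ages used to choose the circRNAs (1d, 7d and 180d) are red. Per clean read the 120d pigs (1.21 to 1.87) lie among those of the first weeks, whereas per read of the table they (1.62 to 2.16) lie below all pigs of 1d to 21d.

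The ages from 14d to 120d were not used by the rule, although part of the detection there was fixed by the table and the rule. Their 15 libraries were fitted together by the quasi-likelihood method of edgeR (two-sided). The p-values were corrected for all 3000 circRNAs by the Benjamini-Hochberg procedure. A circRNA was called differentially expressed where its adjusted p was under 0.05 and it changed at least 2-fold. In 120d vs. 14d, 2 of the 26 members were called lower, TFRC circRNA_11343 and BUB1 circRNA_23829, and 0 were called higher. Of all circRNAs 0.367% were called lower and 0.467% higher, which is 11 and 14 circRNAs (11 and 8 with DESeq2 size factors, 12 and 8 with table totals). The log2 fold change was below 0 for 23 of the 26 members, with a median of -0.95, against a median of 0.09 over all circRNAs. Of the members, 8 had an unadjusted p under 0.05, and all 8 were lower at 120d. No filter on low counts was applied, so that all 26 were tested.

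These values are relative to the other circRNAs. With clean reads as the depth, the median of all circRNAs in 120d vs. 14d was 1.25 in place of 0.09, and the median of the members was 0.17, with 12 of 26 below 0. The gap between both medians changed little, -1.08 in place of -1.04, and 24 of 26 members were below the median of all circRNAs under either depth. Per clean read, the members thus had no common direction between 120d and 14d, while the table as a whole was higher at 120d. Whether this higher yield of back-splice reads came from the spleens or from the preparation of the libraries was not tested.

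In 35d vs. 14d, 0 members and 0 circRNAs of the table were called (0%) by edgeR, and likewise by DESeq2. By edgeR, 194 circRNAs had an unadjusted p under 0.05, 86 lower and 108 higher at 35d. Among the members, 4 had an unadjusted p under 0.05, all lower at 35d. Of the 26, 20 were below 0, against 1383 of 3000 over the table, with a median of -0.31 against 0.06 for all circRNAs. Per clean read this direction was gone, with 11 of 26 below 0 and a median of 0.21 against 0.60 for all circRNAs. Both comparisons share the 14d libraries. The slope on log2 of the age over the 15 libraries was negative for 24 of 26 members and for 1350 of 3000 circRNAs of the table. Its median was -0.35 per doubling of age for the members, against 0.03 for all circRNAs. Per clean read it was negative for 13 of 26, with a median of -0.001 against 0.39. At an adjusted p under 0.05 it called the same 2 members lower and 0 higher, against 0.4% lower and 0.733% higher over the table. With DESeq2 size factors the slopes called over the table were 19 higher and 19 lower, and with table totals 10 higher and 20 lower, in place of 22 and 12.

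**Figure D3:**
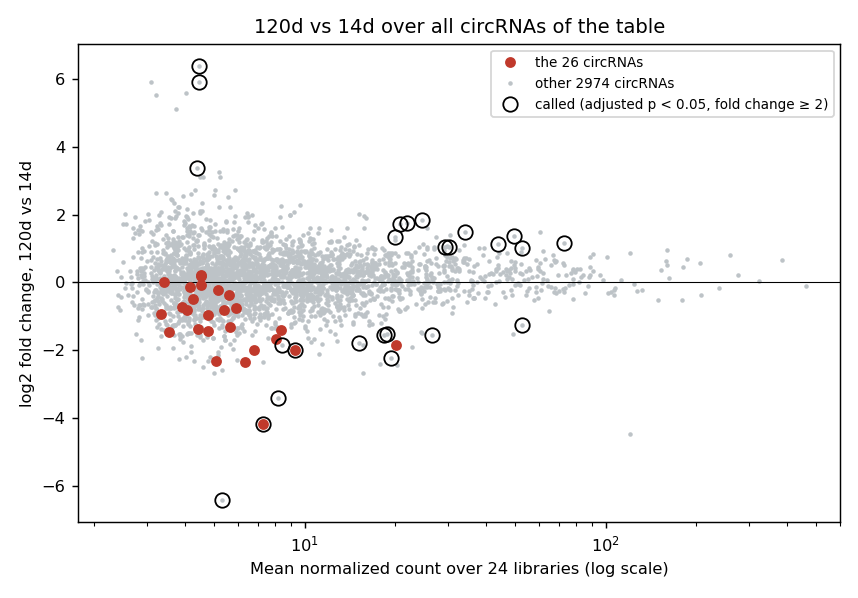
Fold change in 120d vs. 14d on a log2 scale against the mean normalized count over all 24 libraries (log scale), with 1 point per circRNA, the 26 in red and called circRNAs ringed. Of the 26, 23 lie below 0, with a median of -0.95, and 2 are called. Of all 3000 circRNAs, 1333 lie below 0 and 25 are called.

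Iron uptake was represented by 2 members from TFRC, the transferrin receptor. This receptor brings iron into the cell and is abundant on red cell precursors and dividing cells. The 2 members are apart in the gene: circRNA_11324 (chr13:133976765-133981842, plus strand) holds exons 1 to 6 of 18 with the start codon, and circRNA_11343 (chr13:133986643-133987630) holds exons 9 to 10. CircRNA_11324 was the most abundant member. It had 19, 16 and 13 reads in the pigs of 1d, 37, 26 and 31 in 7d pigs, 10, 34 and 26 in 14d pigs, and 46, 23 and 18 in 21d pigs. It had 6, 15 and 17 reads in 28d pigs, 15, 5 and 0 in 35d pigs, 12, 16 and 14 in 120d pigs, and 0, 0 and 8 in 180d pigs. Its reads were most numerous in the first 3 weeks, and although 1 pig of 35d had none, the 3 pigs of 120d again had similar counts.

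In normalized counts circRNA_11324 was 7.24 ± 1.86 at 120d and 26.5 ± 12.8 at 14d, and the pigs of both ages did not overlap. The log2 fold change was -1.86 (SE 0.70), which did not pass the adjustment (edgeR, adjusted p = 0.264). In 35d vs. 14d it was -2.17 (SE 0.78, adjusted p = 0.651).

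CircRNA_11343 had 7, 6 and 5 reads in 1d pigs, 19, 8 and 16 in 7d pigs, 7, 10 and 4 in 14d pigs, and 5, 4 and 18 in 21d pigs. It had 5, 10 and 7 reads in 28d pigs, 0, 3 and 3 in 35d pigs, 0, 0 and 2 in 120d pigs, and 0, 0 and 3 in 180d pigs. From 35d on no pig had more than 3 reads, and up to 28d no pig had fewer than 4. Its normalized count was 0.323 ± 0.559 at 120d and 7.87 ± 2.70 at 14d, with no overlap. The ratio of the summed reads, 2 at 120d to 21 at 14d and scaled to the libraries, was 0.0421, with an exact 95% interval of 0.00479 to 0.172 that covers counting error only. With a read in place of each 0, the ratio was 0.0842 (0.0210 to 0.250).

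The fitted log2 fold change of circRNA_11343 in 120d vs. 14d was -4.19 (SE 0.95, edgeR, adjusted p = 0.0248), and its slope was -1.38 per doubling of age (SE 0.29, adjusted p = 0.0109). The call in 120d vs. 14d was lost without pig 1 or 2 of 14d (adjusted p of 0.0843 and 0.109) and without pig 1 or 2 of 120d (0.0981 and 0.128). The slope lost its call without pig 1 or 2 of 120d (0.0713 and 0.0840). With clean reads as the depth it was the 1 member still called, in both tests. Another TFRC circRNA that is no member, circRNA_11322, shares the start of circRNA_11324 and ends after exon 4. It had 0, 3 and 6 reads at 180d, against 4, 10 and 3 at 1d, ranges that overlap, with a log2 fold change of -1.97 (SE 0.96, adjusted p = 0.202).

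**Figure D4:**
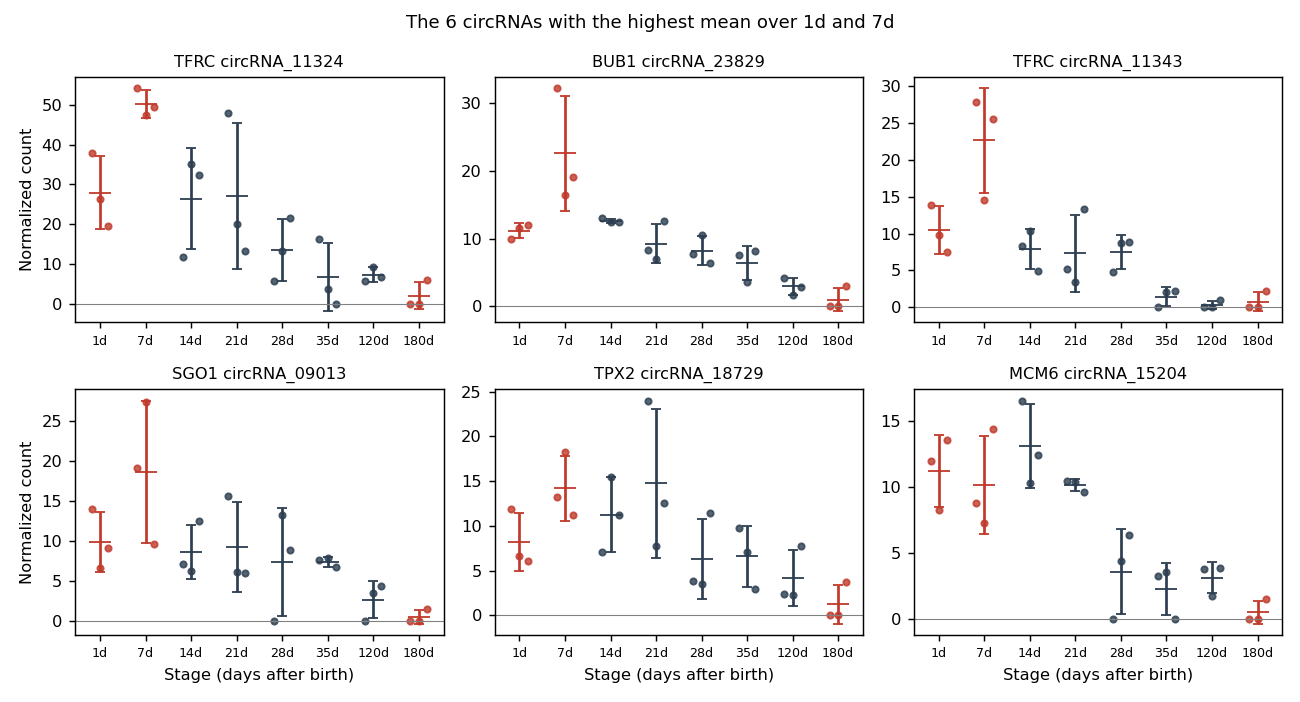
Normalized counts of the 6 circRNAs with the highest mean over 1d and 7d, by age; points are pigs, and the bars are the mean and SD of 3 pigs, with the ages used to choose the circRNAs in red. TFRC circRNA_11343 is near 0 from 35d on (1.45 at 35d and 0.323 at 120d), whereas SGO1 and TPX2 spread widely within an age.

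Mitosis and chromosome structure were represented by 5 members from 5 genes, all of which were below 0 in 120d vs. 14d, between -2.01 and -0.95. The direction is not particular to this group. In this comparison 23 of all 26 members were below 0, and 12 of 26 with clean reads as the depth. Per 1000 reads of the table the 5 together had 1.28 ± 0.325 reads in 1d pigs, 2.04 ± 0.285 in 7d pigs and 1.04 ± 0.128 in 14d pigs. They had 0.324 ± 0.112 in 120d pigs and 0.102 ± 0.148 in 180d pigs. The levels at 1d, 7d and 180d are what chose the members. This grouping and the others by function were made after the members were known.

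BUB1, a kinase of the checkpoint that holds chromosomes until all are attached to the spindle, gave circRNA_23829 (chr3:45598494-45607289, exons 9 to 16 of 25), the longest chain of exons among the members. It had 5, 7 and 8 reads in 1d pigs, 22, 9 and 12 in 7d pigs, 11, 12 and 10 in 14d pigs, and 8, 8 and 17 in 21d pigs. It had 8, 12 and 5 reads in 28d pigs, 7, 5 and 11 in 35d pigs, 9, 3 and 6 in 120d pigs, and 0, 0 and 4 in 180d pigs. Raw counts of the 3 pigs of 120d were all below those of the 3 pigs of 14d, although the libraries of 120d held more reads of the table. Its normalized count was 2.96 ± 1.25 at 120d and 12.6 ± 0.333 at 14d, with no overlap between the pigs.

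The log2 fold change of BUB1 circRNA_23829 in 120d vs. 14d was -2.01 (SE 0.50, edgeR, adjusted p = 0.0459) and its slope -0.65 per doubling of age (SE 0.15, adjusted p = 0.0201). The call in 120d vs. 14d was lost when any 1 of the 6 pigs of both ages was left out (adjusted p of 0.0764 to 0.195), and with clean reads as the depth, where the log2 fold change was -0.84 (adjusted p = 0.235). It was also lost with a replicate block in the edgeR fit (adjusted p = 0.0614) and with all 24 libraries in that fit (0.068). The slope was not called per clean read (-0.29, adjusted p = 0.157), nor without pig 1 of 14d (0.0504), pig 2 of 120d (0.127) or pig 3 of 120d (0.0706).

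SGO1, or shugoshin, protects the cohesin that holds sister chromatids at the centromere, and circRNA_09013 (chr13:7141365-7142742) joins exons 5 to 6 of 8. It had 7, 4 and 6 reads in 1d pigs, 13, 15 and 6 in 7d pigs, 6, 6 and 10 in 14d pigs, and 15, 7 and 8 in 21d pigs. It had 0, 15 and 7 reads in 28d pigs, 7, 11 and 9 in 35d pigs, 0, 6 and 9 in 120d pigs, and 0, 0 and 2 in 180d pigs. Pigs of the same age differed widely, as at 28d, where reads ran from 0 to 15. The log2 fold change in 120d vs. 14d was -1.67 (SE 0.81, edgeR, adjusted p = 0.393).

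TPX2, which helps to assemble the spindle and activates Aurora A, gave circRNA_18729 (chr17:35445886-35452830, exons 4 to 6 of 19) with the start codon. It had 6, 4 and 4 reads in 1d pigs, 9, 10 and 7 in 7d pigs, 6, 15 and 9 in 14d pigs, and 23, 9 and 17 in 21d pigs. It had 4, 4 and 9 reads in 28d pigs, 9, 10 and 4 in 35d pigs, 5, 4 and 16 in 120d pigs, and 0, 0 and 5 in 180d pigs. Its highest count was in a pig of 21d, and 1 pig of 120d had more reads than any pig of 1d or 7d. The log2 fold change in 120d vs. 14d was -1.40 (SE 0.59, edgeR, adjusted p = 0.306).

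The other 2 members of this group had fewer reads. NCAPG2, a subunit of the condensin II complex that compacts chromosomes, gave circRNA_19301 (chr18:693027-701075, exons 18 to 23 of 28), with 4 to 10 reads at 1d and 7d and 0 to 7 at 120d. NUSAP1, which binds the spindle microtubules near the chromosomes, gave circRNA_02132 (chr1:130015785-130016756, exons 5 to 6 of 13), with 2 to 6 reads at 1d and 7d and 0 to 7 at 120d. Their log2 fold changes in 120d vs. 14d were both -0.95, with SEs of 1.00 for NCAPG2 and 0.98 for NUSAP1, and neither was called.

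DNA replication, repair and the entry into the cell cycle were represented by MCM6, FANCD2, CHEK2 and TFDP1. Their log2 fold changes in 120d vs. 14d were between -1.99 and -0.15, and none was called. MCM6 is a subunit of the helicase that opens DNA for replication, and its circRNA_15204 (chr15:15928996-15936972) holds exons 2 to 7 of 17. It had 6, 5 and 9 reads in 1d pigs, 6, 4 and 9 in 7d pigs, 14, 10 and 10 in 14d pigs, and 10, 12 and 13 in 21d pigs. It had 0, 5 and 5 reads in 28d pigs, 3, 5 and 0 in 35d pigs, 8, 3 and 8 in 120d pigs, and 0, 0 and 2 in 180d pigs. All pigs up to 21d had at least 4 reads, and its highest mean was at 14d rather than in the first week.

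In normalized counts MCM6 circRNA_15204 was 3.13 ± 1.2 in 120d pigs and 13.1 ± 3.16 in 14d pigs, with no overlap, and 2.27 ± 1.97 in 35d pigs. The log2 fold change was -1.99 (SE 0.65, edgeR, adjusted p = 0.157) in 120d vs. 14d and -2.51 (SE 0.74, adjusted p = 0.410) in 35d vs. 14d. With every 0 of the table set to 1, a check chosen after seeing the data, it was called in 120d vs. 14d (-2.10, adjusted p = 0.0317).

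FANCD2, the protein that is ubiquitinated when DNA strands are cross-linked, gave circRNA_10114 (chr13:66245793-66246591, exons 3 to 4 of 44). It had 2, 5 and 6 reads in 1d pigs, 7, 6 and 4 in 7d pigs, 7, 3 and 3 in 14d pigs, and 9, 10 and 6 in 21d pigs. It had 4, 2 and 0 reads in 28d pigs, 7, 3 and 4 in 35d pigs, 6, 7 and 12 in 120d pigs, and 0, 0 and 8 in 180d pigs. Its summed raw reads at 120d were above those at 1d or 7d, in libraries with more reads of the table, and its normalized count was 7.08 ± 2.72 in 1d pigs, 9.20 ± 2.46 in 7d pigs and 4.23 ± 1.5 in 120d pigs. Its 8 reads in pig 3 of 180d were above those of 2 pigs of 120d. Its log2 fold change in 120d vs. 14d was -0.22 (SE 0.71, edgeR, adjusted p = 0.940).

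CHEK2, a kinase that halts the cycle after DNA damage, gave circRNA_13273 (chr14:45949202-45960223, exons 3 to 7 of 15), with 2 to 9 reads at 1d and 7d and 7, 4 and 7 at 120d. TFDP1 is the partner of the E2F factors that start S phase, and its circRNA_07132 (chr11:78756445-78765451, exons 2 to 4 of 12) had 2 to 7 reads at 1d and 7d and 8, 5 and 7 at 120d. In 120d vs. 14d, CHEK2 had a log2 fold change of -0.80 (SE 0.73) and TFDP1 one of -0.15 (SE 0.79).

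The centrosome and the nuclear lamina gave 3 members with log2 fold changes in 120d vs. 14d between -1.48 and -1.38, none called. ALMS1, a protein of the centrosome and the base of the cilium, gave both circRNA_24176 (chr3:69297254-69317475, minus strand) and circRNA_24175 (chr3:69294675-69317475), which share an exon end and so are not separate loci. CircRNA_24176 had 4, 5 and 2 reads in 1d pigs, 9, 3 and 6 in 7d pigs, 3, 10 and 4 in 14d pigs, and 5, 4 and 7 in 21d pigs. It had 3, 7 and 3 reads in 28d pigs, 3, 4 and 0 in 35d pigs, 4, 4 and 6 in 120d pigs, and 0, 0 and 0 in 180d pigs. Up to 120d every pig had reads except 1 pig of 35d.

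For a stage listed at 0 in its 3 libraries, each library may hold 0 or 1 read. The expected total over the 3 libraries may then be up to 7 reads, the 95% upper limit (6.43, rounded up). The observed mean of circRNA_24176 was 3.35-fold above that floor of 180d in 1d pigs and 4.92-fold above it in 7d pigs. The floor covers the counting error at 180d only, the earlier means are taken as exact, and the values describe what chose this member. CircRNA_24175, with exons 12 to 16, had 3 to 9 reads in 1d and 7d pigs, 5, 5 and 6 in 120d pigs and 0, 0 and 2 in 180d pigs. LMNB1, or lamin B1, a component of the lamina under the nuclear envelope, gave circRNA_22296 (chr2:129832476-129838638, exons 2 to 5 of 11), with 2 to 5 reads in 1d and 7d pigs, 3, 3 and 5 in 120d pigs and 3, 0 and 0 in 180d pigs.

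Protein folding, translocation and degradation took UBXN2B, CCT3, SEC62 and CALCOCO2, and circRNA_14175, which has no host gene, is given beside them. UBXN2B, a cofactor of the ATPase that extracts ubiquitinated proteins, gave circRNA_26478 (chr4:74411794-74431438, exons 2 to 7 of 8). It had 5, 4 and 8 reads in 1d pigs, 5, 6 and 10 in 7d pigs, 6, 6 and 9 in 14d pigs, and 2, 4 and 8 in 21d pigs. It had 4, 8 and 3 reads in 28d pigs, 2, 6 and 7 in 35d pigs, 10, 4 and 14 in 120d pigs, and 3, 0 and 0 in 180d pigs. Its summed reads in 120d pigs were thus the highest of any age, while its normalized count, 4.6 ± 2.23 in 120d pigs and 8.17 ± 2.67 in 14d pigs, was lower, with a log2 fold change of -0.76 (SE 0.59, edgeR, adjusted p = 0.633).

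The junction circRNA_14175 (chr14:90761890-90764341) lies within MARCH8, a membrane-bound ubiquitin ligase, but its ends did not both match exon ends of the gene, so it has no host gene by the rule used here. It had 2 to 12 reads in 1d and 7d pigs, 3, 5 and 11 in 14d pigs and 4, 0 and 4 in 120d pigs, and the log2 fold change of -2.36 in 120d vs. 14d (SE 0.80, edgeR, adjusted p = 0.176) was not called. CCT3, a subunit of the chaperonin TRiC, gave circRNA_26750 (chr4:93744902-93749340, exons 7 to 10 of 14), with 2 to 6 reads at 1d and 7d and 5, 6 and 6 at 120d. SEC62, which takes part in bringing proteins into the endoplasmic reticulum, gave circRNA_10805 (chr13:108671003-108683011, exons 3 to 7 of 8), with 2 to 5 reads at 1d and 7d and 6, 0 and 8 at 120d.

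CALCOCO2, a receptor that leads cargo to autophagosomes, gave circRNA_07805 (chr12:25066506-25069215, exons 5 to 7 of 13), which behaved least like its description. It had 3 to 5 reads in 1d and 7d pigs, 3, 9 and 5 in 120d pigs, and 0, 0 and 20 in 180d pigs, so that pig 3 of 180d held the highest count of this circRNA in any library. Its log2 fold change of -0.50 in 180d vs. 1d was the smallest in size of all members.

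Signalling and transcription gave SOS1, an activator of RAS, and ATF1, a factor of the CREB family. SOS1 circRNA_24853 (chr3:101280511-101303076, exons 3 to 8 of 23) had 3 to 7 reads in 1d and 7d pigs, 11, 3 and 6 in 120d pigs and 0, 0 and 2 in 180d pigs. ATF1 circRNA_27927 (chr5:16628232-16669538, exons 2 to 8 of 9) had 2 to 7 reads in 1d and 7d pigs, 8, 10 and 5 in 120d pigs and 0, 6 and 0 in 180d pigs. ATF1 had the highest log2 fold change of all members in 120d vs. 14d, 0.22 (SE 0.74).

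The other members were from ANKHD1, a protein with ankyrin repeats and a KH domain, KCTD3, a BTB domain protein, ADAMTS19, a metalloprotease of the ADAMTS family, and GSTCD. ANKHD1 circRNA_22597 (chr2:142190605-142202172, exons 2 to 7 of 34) had 5, 3 and 3 reads in 1d pigs, 6, 4 and 8 in 7d pigs, 5, 5 and 2 in 14d pigs, and 5, 4 and 7 in 21d pigs. It had 2, 4 and 0 reads in 28d pigs, 3, 4 and 9 in 35d pigs, 6, 8 and 11 in 120d pigs, and 0, 0 and 3 in 180d pigs. Its normalized count was 4.26 ± 1.29 in 120d pigs and 4.53 ± 1.80 in 14d pigs, which overlap, and it was thus among the members whose fold change in 120d pigs lay close to 0 (log2 -0.08, SE 0.70).

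KCTD3 circRNA_04503 (chr10:5761746-5772004, exons 4 to 8 of 18) had 3 to 5 reads in 1d and 7d pigs, 0, 13 and 2 in 120d pigs and 7, 0 and 0 in 180d pigs, and its highest mean was in 21d pigs, with 10, 16 and 6 reads. ADAMTS19 circRNA_22317 (chr2:132325084-132337186, exons 15 to 17 of 25) had 2 to 8 reads in 1d and 7d pigs, 5, 4 and 0 in 120d pigs and 2, 0 and 0 in 180d pigs, with a log2 fold change of -2.31 in 120d vs. 14d (SE 0.84, edgeR, adjusted p = 0.208). GSTCD circRNA_35972 (chr8:116010596-116022036, exons 2 to 5 of 12) had 3 to 8 reads in 1d and 7d pigs, 8, 7 and 9 in 120d pigs and 0, 0 and 2 in 180d pigs.

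As a description of what the rule chose, the fitted log2 fold change of the members in 180d vs. 1d had a median of -2.97 and ran from -5.79 to -0.50, and in 180d vs. 7d the median was -3.32. In 180d vs. 120d it was -1.62, with 24 of 26 below 0, against -0.07 and 1645 of 3000 for all circRNAs.

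Other circRNAs of the same host genes were not used by the rule, and 20 of them, from 9 of the 23 genes, were in the table. They asked whether the loss at 180d was shared by other loops of the gene. In 180d vs. 1d, fitted over all 24 libraries with edgeR, 7 of the 20 were called lower and 0 higher, against 3.4% lower and 5.9% higher over the table (102 and 177 of 3000). Their median log2 fold change was -1.52, against 0.20 for all circRNAs, and 17 of 20 were below 0, against 1306 of 3000. With table totals in place of TMM factors the calls over the table were 147 lower and 109 higher, and the 7 calls stayed at 7.

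The 20 are not independent of the members, since 6 were from CCT3 and 5 from ALMS1, and 8 members share an exon end with another circRNA of the table. They are also relative to the table. With clean reads as the depth, 2 of the 20 were called lower (KCTD3 circRNA_04508 and MCM6 circRNA_15205) and SEC62 circRNA_10804 was called higher, with a median of -0.43 against 1.27 for all circRNAs. Without pig 3 of 180d, 7 were called lower, as with all pigs.

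MCM6 circRNA_15205 starts at the same exon as the member and ends 1 exon later. It had 2, 3 and 6 reads at 180d, against 7, 22 and 13 at 1d, with no overlap, and a log2 fold change of -2.93 (SE 0.58, edgeR, adjusted p = 0.000338). GSTCD circRNA_35974 starts at the same exon as the member and closes 1 exon earlier. It had 3, 13 and 6 reads in 180d pigs, against 7, 16 and 23 in 1d pigs, ranges that overlap in reads, with more reads of the table in 180d pigs, and a log2 fold change of -2.09 (SE 0.46, adjusted p = 0.00118). ALMS1 circRNA_24171, which shares the exon end of both ALMS1 members and closes 1 exon further on than circRNA_24175, had 0, 2 and 9 reads at 180d, against 6, 14 and 8 at 1d, ranges that overlap in reads. Its log2 fold change was -2.38 (SE 0.63, adjusted p = 0.00900), and without pig 2 of 1d or pig 2 of 180d the adjusted p was 0.0881 and 0.0638.

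KCTD3 circRNA_04508 starts at the same exon as the member and runs to exon 17. It had 0, 0 and 0 reads in 180d pigs, against 3, 6 and 7 in 1d pigs (edgeR, adjusted p = 0.00125). Its observed mean at 1d, taken as exact, was 4.6-fold above a floor of 7 reads in 180d pigs. CCT3 gave 3 calls, of which the most abundant was circRNA_26742 (exons 5 to 8), with 35, 68 and 39 reads at 180d, against 59, 50 and 82 at 1d. Its normalized count was 38.5 ± 9.86 at 180d and 108 ± 22.3 at 1d, with no overlap, and its log2 fold change was -1.48 (SE 0.23, adjusted p = 1.12e-05). Of the CCT3 circRNAs, circRNA_26745 was also called (-1.96, SE 0.31, adjusted p = 1.12e-05), as was circRNA_26744 (-1.61, SE 0.46, adjusted p = 0.0170), whose call was lost without pig 1 of 1d (0.202) or pig 2 of 180d (0.0676), and circRNA_26734 was above 0 (0.50, SE 0.66).

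With clean reads as the depth, none of the calls of CCT3, GSTCD and ALMS1 remained (CCT3 circRNA_26742 then had -0.37, adjusted p = 0.373). For SEC62, both circRNAs that are no members were above 0 in 180d vs. 1d with TMM factors, and neither was called. Its circRNA_10804, which shares the start of the member and ends 2 exons earlier, had 9, 15 and 20 reads at 180d, against 3, 3 and 3 at 1d, with a log2 fold change of 1.21 (SE 0.57, adjusted p = 0.188). Its circRNA_10803 had 11, 9 and 14 reads at 180d, against 0, 7 and 4 at 1d (0.62, SE 0.67, adjusted p = 0.629). ALMS1 circRNA_24166 was not called in 180d vs. 1d, but it was in 120d vs. 14d (edgeR, adjusted p = 0.00667). It had 0, 0 and 0 reads at 120d, against 5, 13 and 5 at 14d. Its observed mean at 14d, taken as exact, was 7.21-fold above the same floor of reads at 120d.

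**Figure D5:**
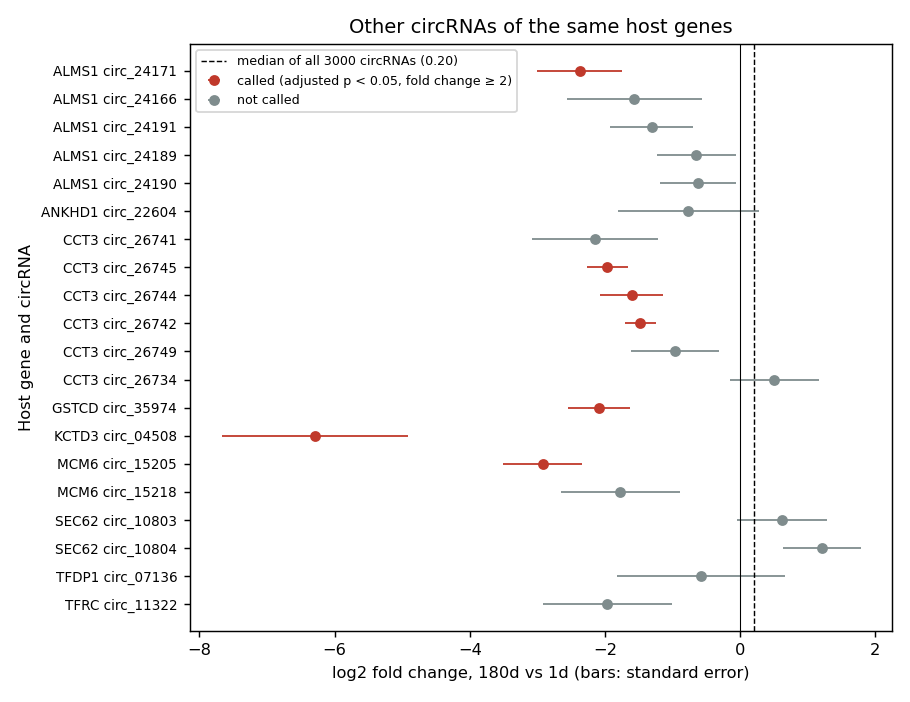
Fold change in 180d vs. 1d on a log2 scale, with its standard error, of the 20 other circRNAs from the host genes of the members; called circRNAs are red and the dashed line is the median of all 3000 circRNAs (0.20). Of the 20, 17 lie below 0 and 7 are called lower, against 1306 and 102 of all 3000. Both SEC62 circRNAs and CCT3 circRNA_26734 lie on the other side and are not called. The point of KCTD3 circRNA_04508, at 0 in every pig of 180d, depends on the fit.

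The members were set beside 11 lists of genes that mark cell types or processes. Of the 26, 2 were in the erythroid list (TFRC), 3 in the mitosis list (TPX2, NCAPG2 and BUB1) and 2 in the S phase list (FANCD2 and MCM6), and none in the other 8. These are 7.69%, 11.5% and 7.69% of the members, against 0.3%, 0.9% and 0.733% of all circRNAs of the table. The lists were chosen with earlier results known and the 2 erythroid members are from 1 gene, so the shares are descriptions. NUSAP1, SGO1 and CHEK2, which are also genes of dividing cells, are in no list.

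The other circRNAs of these 3 lists are read against the table. Of all circRNAs 3.4% were called lower and 5.9% higher, 1306 of 3000 were below 0 and the median was 0.20 in 180d vs. 1d. Of 24 mitosis circRNAs that are no members, 5 were called lower in 180d vs. 1d and 0 higher, 23 were below 0 and the median was -1.39. Those with the smallest p were from KIF11 (circRNA_14373, a spindle motor; -2.19, SE 0.61, adjusted p = 0.0130), BUB1B (circRNA_02232, a checkpoint kinase; -2.59, adjusted p = 0.0154), SMC4 (circRNA_10754, condensin; -1.23, adjusted p = 0.0248) and KNL1 (circRNA_02214, kinetochore; -1.59, adjusted p = 0.0287). KIF11 had 3, 4 and 3 reads at 180d, against 6, 7 and 10 at 1d. The lists were chosen with earlier results known, and these calls were not stable, since each of the 4 was lost without at least 2 single pigs of 1d or 180d and with clean reads as the depth.

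The 7 erythroid circRNAs that are no members came from 3 of the 26 genes of the list. Of these circRNAs 5 were below 0, with a median of -1.53. Of the 7, 3 were called lower and 0 higher. These were circRNA_30915 and circRNA_30910 of EPB41, a protein of the red cell skeleton (-2.32 and -1.53, adjusted p of 0.0204 and 0.0337), and circRNA_20897 of SOX6, a factor of red cell maturation (-4.05, adjusted p = 0.0245). Without pig 1 of 1d or pig 1 of 180d, circRNA_30915 was not called (adjusted p of 0.150 and 0.0861), and circRNA_30910 was not called without any 1 of 5 of the 6 pigs (adjusted p of 0.0665 to 0.279). SOX6 circRNA_20897 had 0, 2 and 2 reads at 180d, against 10, 12 and 13 at 1d, and its adjusted p was 0.0523 to 0.0811 when any 1 of these 6 pigs was left out. Of the 20 S phase circRNAs that are no members, 1 was called lower, MCM6 circRNA_15205, and 0 higher, with 17 below 0 and a median of -1.14. A share of 1 in 20 is near the 3.4% called lower over all circRNAs. ATAD2, RIF1 and WDHD1 had the next smallest p (adjusted p of 0.0956 to 0.116).

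With clean reads as the depth, 0 of the 24 mitosis circRNAs were called and 15 were below 0, with a median of -0.32. In the erythroid list, 1 was then called lower and 1 higher, and in the S phase list, 1 lower and 2 higher. The direction of these lists is thus a direction relative to the table.

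The summed level of the lists without members did not single out pig 3 of 180d. Per 1000 reads of the table, the mitosis list had 1.54, 2.59 and 2.12 reads in the pigs of 180d, against 7.5, 6.12 and 5.98 in those of 1d, and the erythroid list had 1.16, 1.43 and 1.31 at 180d, against 2.82 to 3.44 at 1d. The S phase list had 4.19, 3.84 and 4.37 at 180d, against 6.65 to 7.74 at 1d. The list of B and plasma cells had 2.18 to 3.13 at 180d, against 0.956 to 1.35 at 1d. Of its 7 circRNAs 3 were called higher in 180d vs. 1d, with a median log2 fold change of 1.25. The list of T and NK cells had 1.65 to 1.90, against 0.737 to 0.842, with 1 of 3 circRNAs called higher. Its median of 0.25 was near the 0.20 of all circRNAs, of which 5.9% were called higher. The part of a change in cell types in the levels of the members was not tested.

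In the other lists, which hold no members, 1 of 1 macrophage circRNA was called higher, 2 of 7 stromal circRNAs were called lower, and 1 of 2 fetal growth and 1 of 2 megakaryocyte circRNAs were called lower. Of the 33 circRNAs of widely conserved circRNA hosts, 1 was called higher and 1 lower, with a median of 0.12, and of 2 stem and progenitor circRNAs none was called.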

How the data were processed

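Spleen RNA of 24 pigs, 1 library per pig and 98.45 M to 115.29 M clean reads (M is 1000000), was sequenced by the authors, and the deposited values are raw back-splice read counts from CIRI2 on Sscrofa11.1. The submitters' notes also name FastQC, cutadapt and TopHat2. Groups are the labelled ages. Members and gene lists were chosen with earlier results of these data known. Counts were tested with edgeR 4.0.16 (TMM, robust quasi-likelihood, R 4.3.3): 15 libraries from 14d to 120d for ages that the choice did not use, and 24 for other circRNAs of the host genes. Levels are TMM-scaled counts. Calls needed an adjusted p under 0.05 and, except for slopes, a fold change of at least 2. Host exons were matched within 1 base to RefSeq with pysam 0.24.0.

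Every member is named except 1, which is not reported here beyond the counts, medians and sums over all 26; a junction sequence is also not reported. Counts in every library are given for the 6 with the highest mean over 1d and 7d, those called, up to 4 with the highest mean at 120d, and those at 0 in all of 180d. Of the lists, only those that hold members have named circRNAs, 4 per list by rank of p in 180d vs. 1d; the others are given by counts. Other circRNAs of the host genes are named where called or contrasting, a choice made after seeing values. Alternatives were other scalings, DESeq2 1.42.0, filterByExpr, a replicate block, libraries with a valid-base share of at least 0.96, all 24 libraries, single libraries left out and, chosen after seeing the data, every 0 set to 1. The clean reads come from the study's sequencing statistics. The test was checked on simulated counts. Intervals and floors cover counting error only, and floors only that of the age listed at 0.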

Additional observations from a re-analysis of the deposited data

How the results depend on the processing

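Several directions depend on the scaling. The member median per clean read was 0.17 in 120d vs. 14d (-0.95 with TMM) and 0.21 in 35d vs. 14d (-0.31), and -0.001 in the slope (-0.35). With table totals 109 circRNAs were called higher and 147 lower in 180d vs. 1d (177 and 102 with TMM), and with DESeq2 size factors 8 and 11 in 120d vs. 14d (14 and 11). The member median stayed below that of all circRNAs in these settings. Per clean read, 1160 circRNAs were called in 120d vs. 14d (1157 higher, 3 lower; 25 with TMM), 1411 slopes (1406 and 5; 34 with TMM) and 1009 in 180d vs. 1d (985 and 24; 279 with TMM); 1 member stayed lower in 120d vs. 14d and 1 in the slope, and 2 of the other circRNAs of the host genes. With DESeq2, 0 members were called in 120d vs. 14d, where 1 of the 26 received an adjusted p and 10 had an unadjusted p under 0.05, all lower, and 76 slopes were called, 4 of them members. With libraries of at least 0.96 valid bases, which leaves 1 library at 35d, 120d and 180d that is assumed to vary like the others, 0 circRNAs and 0 members were called in 120d vs. 14d and in the slope, and 55 circRNAs in 180d vs. 1d. With all 24 libraries in the fit, 1 member was called in 120d vs. 14d.

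filterByExpr kept 1800 circRNAs and 9 members. All 9 were below the median of all circRNAs in 120d vs. 14d (24 of 26 unfiltered), in the slope (25 of 26) and in 35d vs. 14d (20 of 26), and the median difference was -1.96 in 120d vs. 14d (-1.04 unfiltered) and -0.68 in the slope (-0.38 unfiltered). With every 0 set to 1, chosen after seeing the data, 60 slopes were called (24 higher, 36 lower), 4 of them members, and 24 circRNAs in 120d vs. 14d (9 and 15), 3 of them members; in 180d vs. 1d the split was 127 higher and 182 lower.

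Leaving out 1 library at a time gave 5 to 16 calls and 0 to 1 members in 120d vs. 14d, 3 to 45 slopes with 0 to 3 members, and 175 to 276 calls with 5 to 7 other circRNAs of the host genes in 180d vs. 1d; the lowest were without pig 1 of 120d, pig 2 of 120d and pig 2 of 180d. A minimum of 3 reads at 1d and 7d would leave 14 members, and 0 in all 3 pigs of 180d would leave 1.

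Replicate numbers did not pair the pigs (1 of 84 same-number pairs had a correlation over 0.1, and 9 of 24 libraries were closest to their own number). With the replicate block, 19 circRNAs and 1 member were called in 120d vs. 14d, 36 slopes with 2 members, and 264 circRNAs with 7 of the host genes' others in 180d vs. 1d. Counts of a few reads per library limit every statement on a single member.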

Other observations

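Circular RNAs just outside the choice came in 2 sets. Among the 112 with early reads and a 0 in exactly 1 pig of 180d, 7 (6.25%) were in the mitosis list, from BUB1B (4 circRNAs), KNL1, CIT and CENPE, against 0.9% of the table. Another 3 were in the S phase list (MCM6 and 2 of ATAD2) and 2 in the erythroid list (SOX6 and EPB41), and 1 each came from BCL11A and IGF2BP3. Their median log2 fold change in 120d vs. 14d was -0.50, with 78 of 112 below 0 and 1 called lower. For all circRNAs the median was 0.09, with 1333 of 3000 below 0 and 11 called lower. A further 31 circRNAs had reads in 5 of the 6 early libraries and a 0 in at least 2 pigs of 180d. They held 0 circRNAs of the mitosis list and 0 of the erythroid list, and included WDHD1 and PRIM1 of the S phase list, FLT1 and VRK1, and their median in 120d vs. 14d was -0.56, with 22 of 31 below 0 and 0 called.

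Being at 0 in at least 2 of 3 pigs was counted at each later age. Of the 1291 circRNAs with reads in all 6 early libraries, this held for 13 in 14d pigs, 3 in 21d pigs, 12 in 28d pigs, 3 in 35d pigs, 2 in 120d pigs and 28 in 180d pigs. The 28 hold all 26 members, which were chosen by this value. Zeros over all 3000 circRNAs also differed by age, with 6.07% to 10.9% in 14d pigs, 0.83% to 1.67% in 120d pigs and 4.80% to 9.57% in 180d pigs. The counts are thus a description and give no test of age.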
